A study of Mus musculus with 12 samples.

Results

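The 10 genes described here encode the main carriers of bile acids, bilirubin and other organic anions, phospholipid and sterols across the membranes of the hepatocyte. They were the rows of the gene table with the symbols Slc10a1, Slco1a1, Slco1a4, Slco1b2, Abcb11, Abcb4, Abcc2, Abcc3, Abcg5 and Abcg8, 10 of the 41128 genes in the table. All 10 passed the filter on low values, a mean of at least 10 over the 12 libraries, which 11782 genes passed. Liver RNA was sequenced from 12 mice of the C57BL/6 background, 3 in each group of condition and labelled sex. The labels number the mice and name no litter, so the p-values measure the spread between these samples. Germ-free (GF) males and females had stayed in sterile isolators until 6 weeks of age. Conventionalized (CV) males and females had left the isolators at weaning, on day 21, for cages with soiled bedding from the same facility, where they acquired microbes over 3 weeks. Both conditions thus shared a germ-free start, and no transgene or drug was named in the labels.

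Hepatocytes take up bile acids from portal blood through a sodium-dependent carrier and several sodium-independent ones on the sinusoidal membrane. They secrete bile acids, conjugated anions, phospholipid and sterols into the bile canaliculus through ATP-driven pumps, and a basolateral pump can return anions to blood. Gut bacteria deconjugate and dehydroxylate bile acids, so the pool that returns to the liver differs between mice with and without microbes. Expression of these carriers in liver is known to respond to bile acid receptors, to oxysterol receptors and, for some uptake carriers, to sex-dependent growth hormone secretion.

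Values are the deposited read counts divided by 1 size factor per library, called normalized counts below. The reads behind a value of these 10 genes ranged from 47 to 22189. The libraries differed in composition between the conditions. GF libraries held 5993619 to 10975691 reads, of which 41.8 to 69.4% fell on 7 abundant loci (mitochondrial rRNA, Lars2, Mir6236 and 3 predicted genes), whereas CV libraries held 8890529 to 15290835 reads with 5.39 to 21.9% on those loci. No date or batch was labelled, so composition and condition cannot be told apart. In 1 library, the third labelled CV male (called CV male 3 below), the Xist value was 2382 with 0 reads of Y-linked genes, where the other 5 libraries labelled male had Xist values of 4.68 to 21.3 and 796 to 1314 Y-linked reads. It went against its label, and the male changes of the 10 genes are given with and without it. Group means, overlaps of libraries, levels per kilobase, ratios, correlations and values of related genes include it. Summed hepatocyte markers (Alb, Apob, Ttr and 7 others) ranged from 141015 to 368318 in GF females, 541122 to 731297 in CV females, 288011 to 596617 in GF males and 512977 to 695002 in CV males, and none of the 10 markers was at 0. Summed cholangiocyte markers (9 genes) lay between 552 and 1675 over all groups with none at 0 throughout. Sums of the 6 Kupffer cell markers were 1309 to 1493 in GF females against 1738 to 2007 in CV females, and 752 to 826 in GF males against 871 to 1763 in CV males. Those of the 5 sinusoidal endothelial markers were 1428 to 2540 against 930 to 1066 in females and 1005 to 1662 against 463 to 1333 in males. Sums of the 4 gallbladder markers reached 26.1, and those of 4 small intestine markers 136 to 779 in GF and 731 to 1301 in CV libraries. Of the small intestine markers, Sis was at 0 in all 12 libraries. The 1 that passed the filter was called higher in CV males and females by the test below (log2 changes of 1.03 and 2.05). The 1 gallbladder marker that passed the filter was called higher in CV females (2.33) and not in males (0.82). The part of these shifts in the results below was not tested, and in bulk liver fewer hepatocytes and less RNA per hepatocyte cannot be told apart.

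Slc10a1, the sodium-dependent uptake carrier for conjugated bile acids, was higher in CV than in GF livers of both sexes, and Abcc2 and Abcg5 were lower in CV females, as were the counts of Slco1a4. Differences were tested with limma on log2(normalized count + 1) and are given as CV minus GF on that scale, with Benjamini-Hochberg adjustment over all 11782 genes and a threshold of 0.05. In males 1 of the 10 genes passed, Slc10a1, whereas 29.5% of all genes passed (14.1% higher and 15.4% lower). In females 5 passed, Slc10a1 and Abcb4 upward and Abcc2, Abcg5 and Slco1a4 downward, whereas 55.8% of all genes did (29.8% higher and 26% lower). Averaged over the sexes 6 passed (Slc10a1, Abcb4 and Abcc3 higher, Abcc2, Abcg5 and Abcb11 lower) beside 61.1% of all genes (32.3% higher and 28.7% lower). The genes that passed in females differed by scaling. Against all reads, 5 passed and all were higher (Slc10a1, Slco1b2, Abcb4, Abcc3 and Abcg8), so that the downward calls of Abcc2, Abcg5 and Slco1a4 were lost. Of all 11782 genes 6951 passed under that scaling, 5832 higher and 1119 lower. Scaled to reads outside the abundant loci, 6 passed, Slc10a1 upward and Slco1a4, Slco1b2, Abcb11, Abcc2 and Abcg5 downward. There 6504 of all genes passed, 1857 higher and 4647 lower, so the balance of higher and lower calls moved with the scaling over the whole table. Under the deposited scaling, in none of the 3 comparisons was the share of passing members above that of all genes. The median change of the 10 genes was 0.17 in males and 0.03 in females, beside medians of 0.06 and 0.08 for all genes tested.

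**Figure D1:**
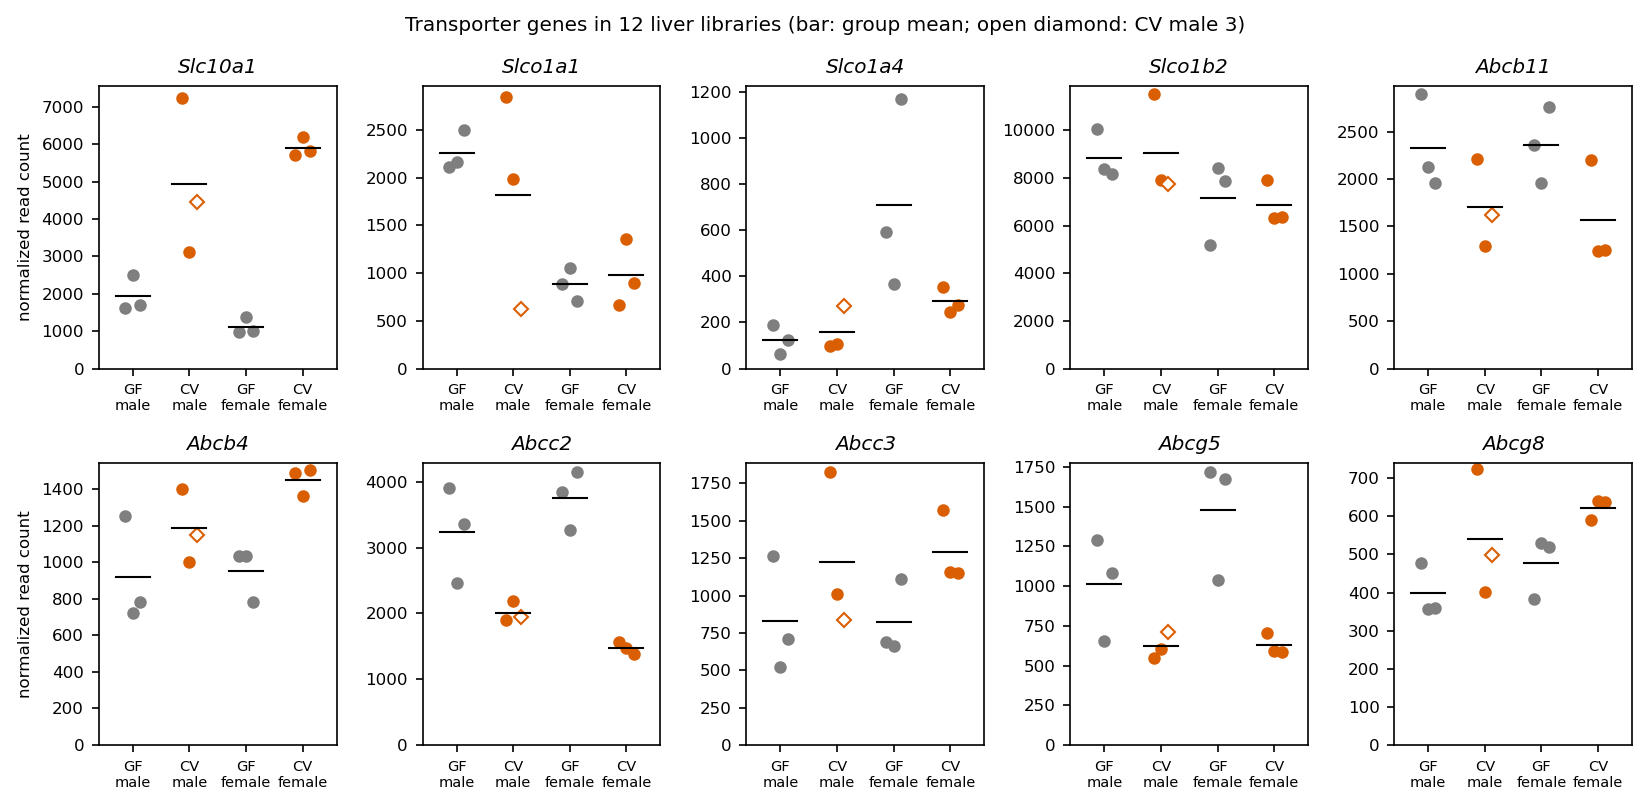
Normalized read count (linear axes from 0) of each of the 10 genes in the 12 libraries, by condition and labelled sex; bars mark group means of 3 libraries and the open diamond is the library labelled CV male 3. Slc10a1 lay higher and Abcc2 lower in each CV group without overlap. The open diamond lay below every female library for Slco1a1 and within the range of CV females for Slco1a4.

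The sinusoidal uptake carriers were examined first. Slc10a1 (also called NTCP; ENSMUSG00000021135, GRCm38 chromosome 12, 80953183 to 80968705, minus strand) had normalized counts of 1620, 2490 and 1696 in GF males and 7247, 3112 and 4461 in CV males. Counts were 972, 1375 and 993 in GF females and 5726, 6189 and 5808 in CV females. Each CV library lay above every GF library, although CV males spread widely, with library 1 highest. The group means were 1935 ± 482 and 4940 ± 2109 in GF and CV males, and 1113 ± 227 and 5908 ± 247 in GF and CV females (SD, n = 3). The log2 change was 1.29 ± 0.31 (SE) in males (limma adjusted p = 0.0073) and 2.42 ± 0.31 in females (limma adjusted p = 2e-05), that is, 2.45-fold and 5.37-fold. Without the library labelled CV male 3, the male change was 1.32 and still passed (limma adjusted p = 0.015). The change in females exceeded that in males by 1.13 ± 0.44, which did not pass after adjustment over all genes (limma unadjusted p = 0.02, adjusted p = 0.42). With the mitochondrial rRNA share of each library as a covariate the change was 0.63 in males and 0.87 in females and passed in neither (limma adjusted p = 0.49 and 0.73). With that covariate 3 of all genes passed in males and 0 in females, and 93.5% of the variance of the share lay between the 4 groups.

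Slco1b2, the sodium-independent uptake carrier for bile acids and bilirubin (ENSMUSG00000030236, chromosome 6, 141629518 to 141686646, plus strand), did not pass in either sex. The GF libraries ranged from 8164 to 10042 normalized counts in males and 5169 to 8424 in females, and the CV libraries from 7764 to 11548 and 6325 to 7913, so the groups overlapped in both sexes. The changes were 0.01 ± 0.31 in males and -0.04 ± 0.31 in females (limma adjusted p = 0.98 and 0.93). The sign turned with the scaling: scaled to all reads, the female change was 0.77 and passed (limma adjusted p = 0.029), and scaled to reads outside the abundant loci it was -0.66 and passed (limma adjusted p = 0.048). Relative to the median of all genes it was -0.11 under the deposited scaling, -0.09 under all reads and -0.12 outside the abundant loci. Each scaling divides a library by 1 constant, so this distance stays nearly the same by construction.

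Slco1a1 and Slco1a4, multispecific organic anion carriers whose expression in mouse liver is known to differ by sex, lie near each other on the minus strand of chromosome 6 (ENSMUSG00000041698, 141907282 to 141946962, and ENSMUSG00000030237, 141805440 to 141856199). Slco1a1 had normalized counts of 2105, 2164 and 2493 in GF males, 880, 1051 and 709 in GF females and 668, 1359 and 897 in CV females. In libraries labelled CV male it had 2847, 1988 and 620. Of 50-base stretches of their exons, 1.64% for Slco1a1 and 1.61% for Slco1a4 occur in 5 related loci, each other and other Slco1a genes included, so reads there are uncertain. The third CV male value lay below the range of all other libraries labelled male and below every female library. Its change was -0.56 ± 0.42 in males (limma adjusted p = 0.33), and 0.08 without the library labelled CV male 3 (limma adjusted p = 0.87). In females it was 0.10 ± 0.42 (limma adjusted p = 0.85), and there the sign turned to -0.52 when values were scaled to reads outside the abundant loci.

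Slco1a4 had normalized counts of 593, 367 and 1171 in GF females and 353, 247 and 275 in CV females, so that each CV female lay below each GF female. GF males had 191, 62.5 and 123, and the libraries labelled CV male had 97.8, 107 and 273. The female change was -1.14 ± 0.45 (limma adjusted p = 0.043), and GF female 3 carried much of it: without that library the change was -0.69 (limma adjusted p = 0.22). The call was also lost without GF female 1, GF male 3 or any single CV female, with limma adjusted p from 0.052 to 0.12. It was lost as well at -0.33 scaled to all reads, at -0.82 after the length and GC trend was taken out, and when any value above 0 was tested (limma adjusted p = 0.58, 0.16 and 0.078). With the mitochondrial rRNA covariate the female change was -0.25 and did not pass either (limma adjusted p = 0.96). The male change was 0.32 ± 0.45 (limma adjusted p = 0.63), which turned to -0.16 without the library labelled CV male 3 and to -0.11 without GF male 2. The changes of the sexes differed by -1.45 ± 0.64, which did not pass after adjustment (limma unadjusted p = 0.038, adjusted p = 0.42). In the fit of all 12 libraries under the deposited scaling, no gene of the table passed that test of the sex difference under limma, nor under edgeR, with 1382 genes at an unadjusted p under 0.05 under limma and 1424 under edgeR, and DESeq2 called 23 genes but none of the 10. Under limma 291 genes passed it without CV male 1, 4 without the library labelled CV male 3 and 11 scaled to all reads, again with 0 of the 10.

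Males and females of the same condition were then compared. Among GF livers, Slco1a4 was lower in males, with a male minus female difference of -2.47 ± 0.45 on the log2 scale (limma adjusted p = 0.01), with no overlap of the 3 male and 3 female libraries. It was the single member that passed, beside 1.63% of all genes (192 genes, and 49 to 716 when 1 library was left out). Without GF male 2 or without GF female 3 it lost its call, with changes of -2.04 and -2.03 (limma adjusted p = 0.075 and 0.053). Slco1a1 was 1.37 ± 0.42 higher in GF males without overlap, short of the threshold (limma adjusted p = 0.11). Without the library labelled CV male 3 in the fit, the SE of the same change was 0.29 and Slco1a1 passed (limma adjusted p = 0.017). Slc10a1 also did not overlap between the sexes in GF livers, with 0.79 ± 0.31 more in males (limma adjusted p = 0.2). So 3 of 10 genes did not overlap between GF males and females, beside 18.7% of all genes. In CV livers 0 members passed under limma, edgeR or DESeq2, with 1 member (Slco1a4, -1.02 ± 0.45) at a limma unadjusted p under 0.05, beside 0.0594% of all genes called (7 genes, and 77 without the library labelled CV male 3). Abcc2 alone did not overlap between the sexes in CV livers, where 10.9% of all genes did not.

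Of the canalicular pumps, Abcb4 passed upward and Abcc2 and Abcg5 downward in females. Abcb11, the bile salt export pump (ENSMUSG00000027048, chromosome 2, 69238282 to 69342616, minus strand), had normalized counts of 2899, 2129 and 1954 in GF males and 2212, 1291 and 1624 in CV males. In GF females it had 2358, 1958 and 2758, and in CV females 2205, 1236 and 1251. Library 1 of each CV group lay within the GF range, so the groups overlapped in both sexes. The change was -0.46 ± 0.30 in males and -0.63 ± 0.30 in females (limma adjusted p = 0.26 and 0.08), and averaged over the sexes -0.55 ± 0.21, which passed (limma adjusted p = 0.033) but turned to 0.01 when values were scaled to all reads. The averaged call held in 5 of 12 fits without 1 library and was lost without GF male 1, GF female 1 or 3, CV male 2 or 3, or CV female 2 or 3 (limma adjusted p = 0.054 to 0.093). With the length and GC trend removed the averaged change was -0.24 and did not pass (limma adjusted p = 0.30). Nor did it pass with any value above 0 tested or with the mitochondrial rRNA covariate (limma adjusted p = 0.056 and 0.32). Relative to the median of all genes the female change was -0.71 under the deposited scaling, -0.69 under all reads and -0.72 outside the abundant loci, a likeness that is again nearly fixed by construction. Reads of Abcb11 share 136 exonic bases with the antisense gene Gm13613, which had a mean normalized count of 1.75.

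Abcb11 is a textbook target of the bile acid receptor FXR (Nr1h4), a nuclear receptor whose sites are built from copies of the hexamer AGGTCA. The window from 250 bases before to 50 bases after each start site in RefSeq (GRCm38.p6) was searched on both strands for these letters. RefSeq windows were found for 9 of the 10 genes, all but Abcc3. The hexamer occurred in 5288 of 32544 promoter windows (16.2%), and among the members in windows of Slc10a1, Slco1a1, Slco1b2, Abcb11 and Abcc2. The windows of Abcb11 (chr2:69342567-69342866, minus strand) and Slco1b2 (chr6:141629268-141629567, plus strand) are shown as those of an export and an uptake carrier that each held 1 hexamer. Capitals mark AGGTCA or its reverse complement TGACCT, and a match describes letters and not binding.
Abcb11: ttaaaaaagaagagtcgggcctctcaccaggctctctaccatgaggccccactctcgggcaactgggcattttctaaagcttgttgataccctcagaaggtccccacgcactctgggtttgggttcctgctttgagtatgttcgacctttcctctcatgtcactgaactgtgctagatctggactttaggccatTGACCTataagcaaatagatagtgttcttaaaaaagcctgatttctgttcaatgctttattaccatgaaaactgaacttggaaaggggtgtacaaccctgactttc
Slco1b2: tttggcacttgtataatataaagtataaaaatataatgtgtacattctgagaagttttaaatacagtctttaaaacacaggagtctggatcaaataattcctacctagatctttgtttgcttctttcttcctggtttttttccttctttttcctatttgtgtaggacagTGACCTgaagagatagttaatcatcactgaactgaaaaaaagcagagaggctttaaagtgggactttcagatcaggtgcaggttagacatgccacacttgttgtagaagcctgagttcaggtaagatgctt
The match lay 56 bases before the start site of Abcb11 and 81 bases before that of Slco1b2. The changes that go with these windows were -0.63 and -0.04 in females and -0.46 and 0.01 in males, none of which passed. Nr1h4 itself changed by -0.44 ± 0.24 in males and -0.55 ± 0.24 in females (limma adjusted p = 0.17 and 0.063), and its target Nr0b2, the corepressor SHP, by 0.24 ± 0.33 and 0.66 ± 0.33 (limma adjusted p = 0.61 and 0.099).

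Abcb4, which flips phosphatidylcholine to the canalicular side (ENSMUSG00000042476, chromosome 5, 8893717 to 8959231, plus strand), had normalized counts of 1037, 1035 and 784 in GF females and 1488, 1366 and 1508 in CV females, without overlap. In males the values overlapped, with 1253, 723 and 781 in GF and 1404, 1004 and 1148 in CV libraries. The changes were 0.62 ± 0.26 in females and 0.40 ± 0.26 in males (limma adjusted p = 0.049 and 0.25). The female call lay at the edge of the threshold and was lost under edgeR, with an adjusted p of 0.093, and it held in 4 of the 12 fits that each left out 1 library. It was lost without any single CV female, GF female 1 or 3, GF male 3, or the libraries labelled CV male 2 or 3 (limma adjusted p = 0.054 to 0.16). Scaled to reads outside the abundant loci the female change was 0.00, and scaled to all reads 1.43.

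Abcc2, the canalicular pump for conjugated bilirubin and other anions (also called MRP2; ENSMUSG00000025194, chromosome 19, 43782192 to 43840740, plus strand), had lower counts in CV libraries. Its normalized counts were 3904, 2455 and 3357 in GF males, 1897, 2186 and 1947 in CV males, 3843, 3266 and 4154 in GF females and 1571, 1466 and 1387 in CV females. Each CV library lay below every GF library of either sex, and the CV libraries were tight. Group means were 3239 ± 732 and 2010 ± 154 in males and 3754 ± 450 and 1475 ± 92.7 in females (SD, n = 3). Abcc2 fell by 1.34 ± 0.25 in females (limma adjusted p = 0.00033), whereas the male change of -0.66 ± 0.25 just missed the threshold (limma adjusted p = 0.054, and DESeq2 adjusted p = 0.005). The male change passed without GF male 2, at -0.85, or without GF female 2 (limma adjusted p = 0.023 and 0.041). After removal of the trend of each library on transcript length and GC, the changes were -0.05 in males and -0.29 in females and neither passed (limma adjusted p = 0.88 and 0.26). Scaled to all reads the female change was -0.53 and the averaged change -0.44, and both calls were lost (limma adjusted p = 0.14 and 0.077). Its longest transcript, 8027 bases, is the longest among the 10 genes.

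Abcc3, the basolateral pump that returns glucuronides and bile acids to blood (also called MRP3; ENSMUSG00000020865, chromosome 11, 94343295 to 94392997, minus strand), went the other way. Its normalized counts were 688, 665 and 1108 in GF females and 1574, 1155 and 1150 in CV females, without overlap but with GF female 3 close to the CV range. In GF males they were 1263, 522 and 707 and in CV males 1825, 1008 and 839, with overlap. The changes were 0.58 ± 0.35 in males and 0.68 ± 0.35 in females, which did not pass alone (limma adjusted p = 0.22 and 0.11), and 0.63 ± 0.25 averaged over the sexes, which did (limma adjusted p = 0.036). That averaged call was lost without GF male 2 or 3, GF female 1 or 2, CV male 1 or CV female 1 (limma adjusted p = 0.069 to 0.096), and the female change had no call without any of the 12. With the length and GC trend removed, Abcc3 was called in both sexes, by 0.83 in males and 1.03 in females (limma adjusted p = 0.049 and 0.0086). Scaled to reads outside the abundant loci, the changes were 0.06 in females and 0.17 averaged (limma adjusted p = 0.91 and 0.62). The averaged call was also lost with edgeR (adjusted p = 0.065), and in limma with TMM-scaled CPM or with any value above 0 tested (adjusted p = 0.059 and 0.06). The ratio of Abcc3 to Abcc2, which no scaling of a library can change, was 0.179 to 0.323 in the 6 GF libraries and 0.431 to 1.00 in the 6 CV libraries. This ratio and those below were chosen after the values were seen and are descriptions. With the mitochondrial rRNA covariate the changes of Abcc3 and Abcc2 were alike in females, at -1.21 and -1.17, and were -0.23 and -0.59 in males.

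**Figure D2:**
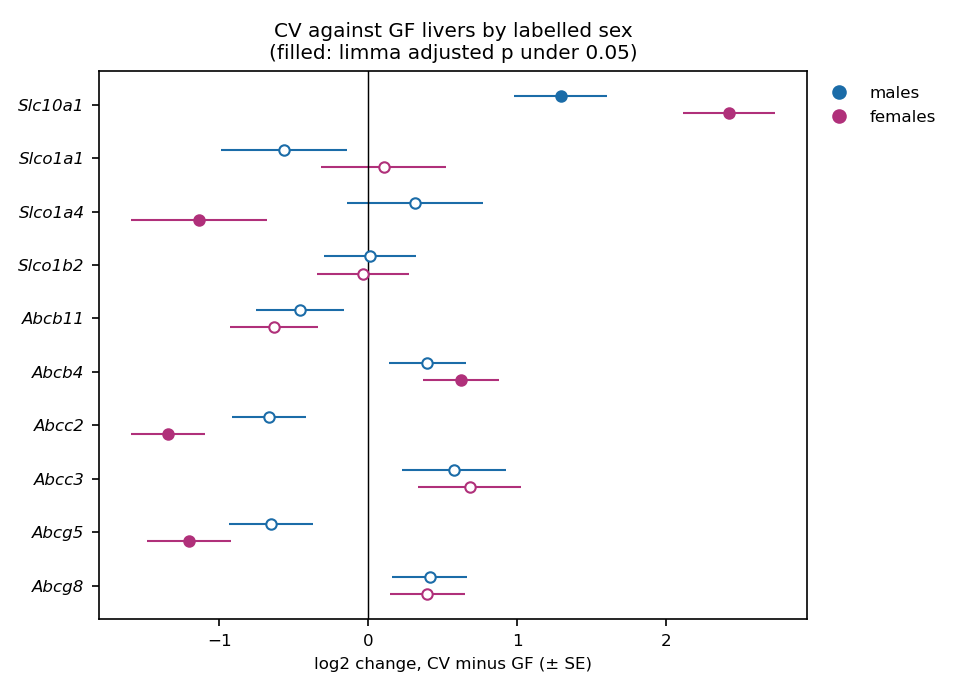
Change of each of the 10 genes on the log2(normalized count + 1) scale, CV minus GF, in males and females; bars are the SE of the limma fit over 12 libraries and filled points have an adjusted p under 0.05. Slc10a1 is filled in both sexes (1.29 and 2.42), Abcc2 and Abcg5 lie to the left in both and are filled in females, and Slco1b2 sits at 0.01 and -0.04, with a sign that turned between scalings.

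Abcg5 and Abcg8 encode the subunits of the canalicular sterol pump, which works as a heterodimer. The genes are divergent neighbours on chromosome 17, Abcg5 on the minus strand (ENSMUSG00000040505, 84658234 to 84683011) and Abcg8 on the plus strand (ENSMUSG00000024254, 84676302 to 84700333). RefSeq gives 1 start site for Abcg5 and 2 for Abcg8. The nearer Abcg8 start site lies 110 bases from that of Abcg5, and their windows of 300 bases share 209 bases. The other Abcg8 start site, 84676302, has a window that shares no base with that of Abcg5 and holds 0 of the matches below. The windows of the nearer pair (chr17:84682962-84683261, minus strand, and chr17:84682871-84683170, plus strand; GRCm38.p6) are shown because the pair shares this stretch while the ratio of their counts differed between conditions, as given below. Capitals mark the letters AGATAA, bound by factors of the GATA family, or their reverse complement TTATCT.
Abcg5: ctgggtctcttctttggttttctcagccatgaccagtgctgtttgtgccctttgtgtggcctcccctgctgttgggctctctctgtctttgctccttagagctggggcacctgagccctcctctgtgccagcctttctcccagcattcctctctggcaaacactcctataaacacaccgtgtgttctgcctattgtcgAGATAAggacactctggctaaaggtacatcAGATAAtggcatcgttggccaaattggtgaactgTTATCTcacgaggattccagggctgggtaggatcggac
Abcg8: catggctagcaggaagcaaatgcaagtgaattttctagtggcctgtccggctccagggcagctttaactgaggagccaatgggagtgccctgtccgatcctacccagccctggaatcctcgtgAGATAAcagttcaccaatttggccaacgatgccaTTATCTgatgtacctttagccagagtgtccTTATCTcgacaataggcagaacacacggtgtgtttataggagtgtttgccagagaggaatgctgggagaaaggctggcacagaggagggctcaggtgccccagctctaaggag
The 3 matches lie in the shared stretch and are therefore the same 3 places read from each side. At least 1 match was held by 11.2% of the 32544 windows and at least 3 by 0.108%. The letters were marked for this pair alone, so these shares describe the windows and are no test of enrichment.

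Abcg5 fell in CV females. Its normalized counts were 1719, 1037 and 1673 in GF females and 707, 589 and 587 in CV females, and 1292, 653 and 1086 in GF males against 547, 605 and 714 in CV males. The female groups did not overlap, while GF male 2 lay within the range of CV males. The changes were -1.20 ± 0.28 in females (limma adjusted p = 0.0019) and -0.65 ± 0.28 in males (limma adjusted p = 0.091). Without GF male 2 the male change was -0.94 and passed (limma adjusted p = 0.02), and the female call held in all 12 fits that left out 1 library. With the length and GC trend removed they were -1.69 and -0.89 and both passed (limma adjusted p = 0.00021 and 0.032), whereas scaled to all reads the female change was -0.39 and did not (limma adjusted p = 0.35).

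Abcg8 had normalized counts of 383, 529 and 519 in GF females and 591, 640 and 636 in CV females, which did not overlap. In GF males it had 477, 357 and 360 and in CV males 723, 401 and 499, which did. The changes of 0.41 ± 0.25 in males and 0.40 ± 0.25 in females did not pass (limma adjusted p = 0.23 and 0.19). The female change was -0.22 when values were scaled to reads outside the abundant loci and 1.20, past the threshold, when scaled to all reads (limma adjusted p = 0.0007). Relative to the median of all genes it was 0.32, 0.34 and 0.31 under the deposited scaling, all reads and reads outside the abundant loci, which are alike nearly by construction.

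The ratio of Abcg5 to Abcg8 did not overlap between the conditions. It was 2.71, 1.83 and 3.02 in GF males, 4.48, 1.96 and 3.22 in GF females, 0.757, 1.51 and 1.43 in CV males and 1.20, 0.920 and 0.922 in CV females. The lowest GF ratio, 1.83, lay above the highest CV ratio, 1.51. As a log2 ratio the change was -1.06 in males and -1.60 in females, but it was -0.52 and -0.34 with the mitochondrial rRNA covariate and -1.34 and -2.04 with the length and GC trend removed. The gene bodies overlap on opposite strands with 82 shared exonic bases, 3.02% of the Abcg5 exons and 2.19% of those of Abcg8. The kit kept strand, and whether the counting used it is not given in the sources used here.

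**Figure D3:**
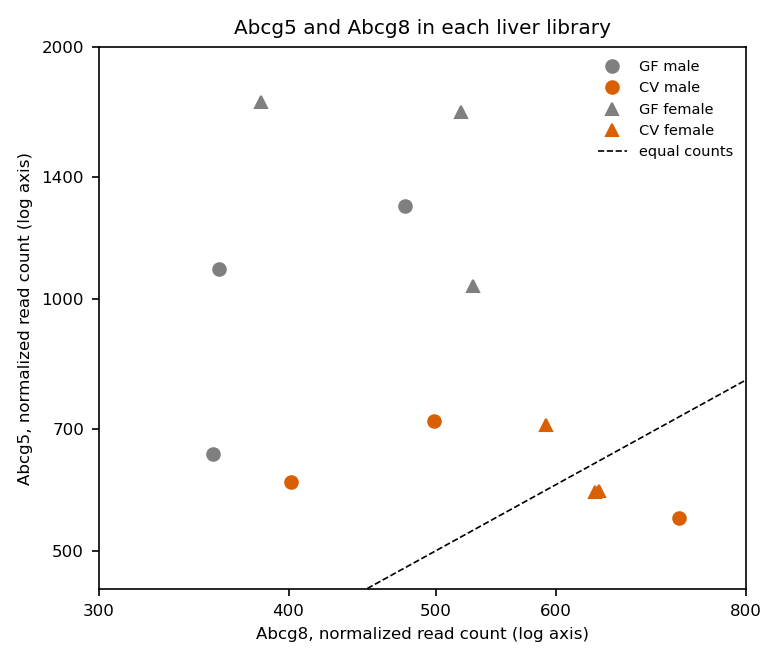
Normalized read count of Abcg5 against that of Abcg8 in each of the 12 libraries (both axes logarithmic); circles are labelled males, triangles labelled females, and the dashed line marks equal counts. All 6 GF libraries lie above the line, with ratios of 1.83 to 4.48, and the 6 CV libraries lie near or below it, with ratios of 0.757 to 1.51.

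Without the library labelled CV male 3, Slc10a1 was again the single gene of the 10 to pass in males, beside 2974 of all 11782 genes. The male changes of the canalicular and basolateral pumps were then -0.44 for Abcb11, 0.41 for Abcb4, -0.64 for Abcc2, 0.81 for Abcc3, -0.75 for Abcg5 and 0.45 for Abcg8, and that of Slco1b2 was 0.11. In the comparison of CV males with CV females, 0 of the 10 genes passed without that library as well, beside 77 of all genes.

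Counted over the 10 genes, the GF and CV libraries did not overlap for 2 genes in males (Slc10a1 higher, Abcc2 lower), beside 43% of all genes tested (22% higher and 21.1% lower), and for 7 in females (Slc10a1, Abcb4, Abcc3 and Abcg8 higher, Slco1a4, Abcc2 and Abcg5 lower), beside 64.9% (34% higher and 31% lower). Scaling of the libraries shifted all genes together. The median change of all genes was 0.06 in males and 0.08 in females under the deposited scaling, 0.37 and 0.86 scaled to all reads, and -0.23 and -0.53 scaled to reads outside the abundant loci. Each scaling divides a library by 1 constant, so the distance of a gene from that median stays nearly the same by construction and is no check of a change. Slc10a1 was 1.23, 1.24 and 1.22 above it in males and 2.35, 2.37 and 2.34 in females under these 3 scalings. Abcc2 was at -1.42, -1.40 and -1.43 relative to it in females and Abcg5 at -1.28, -1.26 and -1.29. Removal of the length and GC trend did reorder the members, to 1.74 for Slc10a1, -0.41 for Abcc2 and -1.82 for Abcg5 relative to the median in females.

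**Figure D4:**
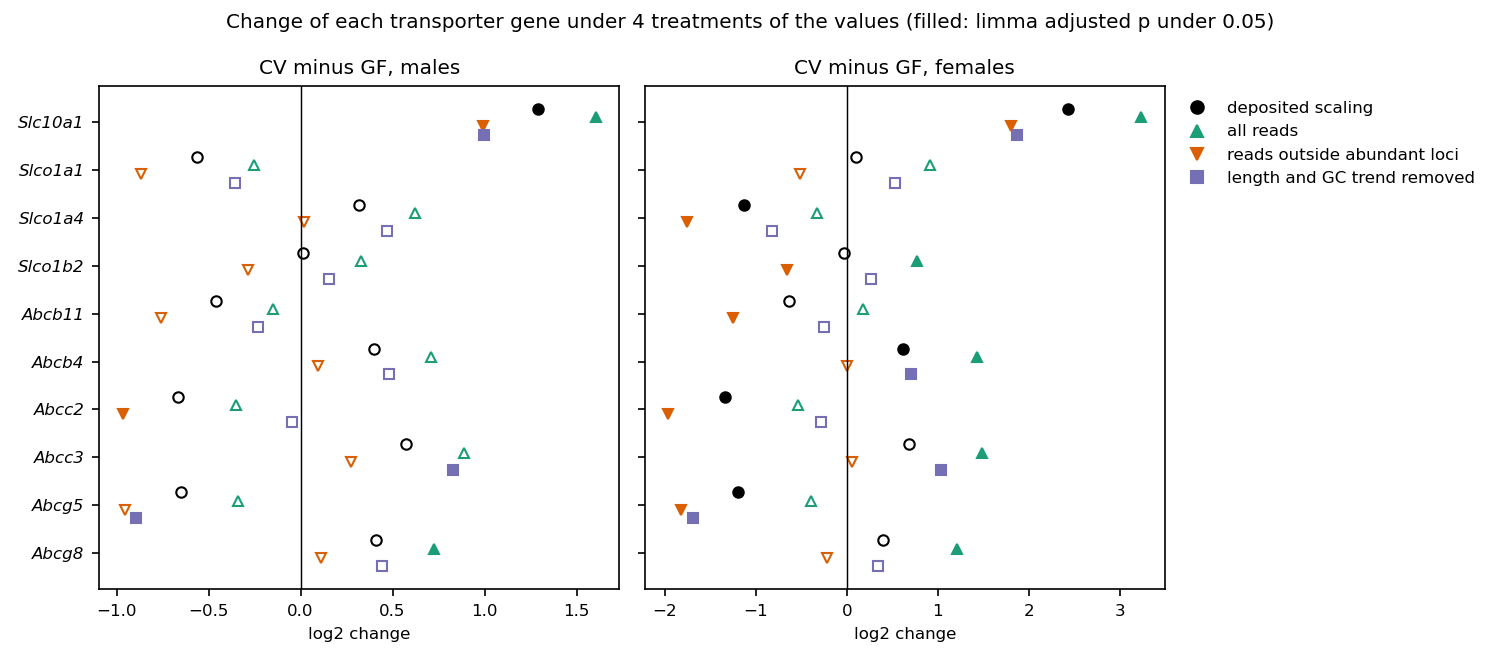
Log2 change, CV minus GF, of each of the 10 genes in males and females under the deposited scaling, scaling to all reads, scaling to reads outside the 7 abundant loci, and after removal of a trend on transcript length and GC content; filled symbols have a limma adjusted p under 0.05. The 3 scalings shift each gene by about the same amount, so that Abcb11, Slco1a1, Slco1b2 and Abcg8 cross 0 in females, and removal of the trend brings Abcc2 to -0.05 in males and -0.29 in females.

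Levels between genes were compared as normalized counts per kilobase of the longest transcript. In GF livers Slco1b2 was highest (2679 ± 311 in males and 2165 ± 528 in females) and Slc10a1 second (1107 ± 275 and 637 ± 130; SD, n = 3). In CV livers Slc10a1 was first with 2824 ± 1206 in males and 3378 ± 141 in females, and Slco1b2 second with 2743 ± 649 and 2078 ± 273. The 2 genes did not differ beyond their spread in CV males, whereas their ranges were apart in both GF groups and in CV females. Abcb11 held the fourth place in each group, with means per kilobase from 311 to 469. In GF females Slc10a1 (637 ± 130) and Abcg5 (628 ± 162) were neighbours within their spread. At the low end stood Slco1a4, with 32.8 ± 16.8 per kilobase in GF males, 41.7 ± 25.9 in CV males and 76.2 ± 14.5 in CV females, and in GF females Abcg8, with 130 ± 22.2 beside 186 ± 108 for Slco1a4.

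Within the set, several genes varied together over the 12 libraries, which share scaling, composition and condition. Slc10a1 and Abcc2 had a Pearson correlation of -0.95 on the log2 scale, and of -0.71 about their group means. Abcc2 and Abcg5 correlated at 0.90, and at 0.89 about group means. Slco1a1 and Slco1a4 ran opposite, at -0.81 and -0.69. Abcg5 and Abcg8 had -0.41, and -0.07 about group means. Of the 11049 other genes compared, those most like Slc10a1 were Txn2 (0.994) and Igfbp4 (0.991), and those most like Slco1a1 were Cyp4a12b (0.970) and Hsd3b5 (0.968), both expressed mainly in male mouse liver. Slco1a4 was most like Hcls1 (0.920) and Xist (0.900), Abcc2 most like Smchd1 (0.990) and Rbm5 (0.987), and Abcg5 most like Sec24b (0.971) and Dlg1 (0.969). The remaining members had closest correlations of 0.882 (Slco1b2 with Tom1l1), 0.935 (Abcb11 with Zfp74), 0.955 (Abcb4 with Prune1), 0.951 (Abcc3 with Vps35l) and 0.940 (Abcg8 with Snx2).

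Other genes of hepatobiliary transport were read from a list of 21, of which 16 passed the filter. In males 5 of the 16 passed the test, 2 higher and 3 lower, and in females 8, 4 higher and 4 lower, beside the 29.5% and 55.8% of all genes. The basolateral organic anion carrier Slc22a7 rose by 1.76 ± 0.51 in males and 3.25 ± 0.51 in females (limma adjusted p = 0.017 and 7.9e-05). The cholesterol exporter Abca1 fell by 0.81 ± 0.22 in males and 0.95 ± 0.22 in females (limma adjusted p = 0.014 and 0.002), and Abcc6, a basolateral ABC transporter, fell by 1.06 ± 0.34 and 1.22 ± 0.34 (limma adjusted p = 0.029 and 0.0061). The basolateral efflux pump Abcc4 fell by 1.41 ± 0.49 in females (limma adjusted p = 0.023) and changed by 0.05 ± 0.49 in males (limma adjusted p = 0.95). The bile acid efflux subunits Slc51a and Slc51b were too low to be tested, as were Abcb1b, Slco1a5 and Slco1a6. All changes of related genes are given under the deposited scaling alone. There the median female change of all genes was 0.08, against 0.86 scaled to all reads and -0.53 outside the abundant loci. Changes of the related genes shift with the scaling as well, so their sizes and calls hold for the deposited scaling only.

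**Figure D5:**
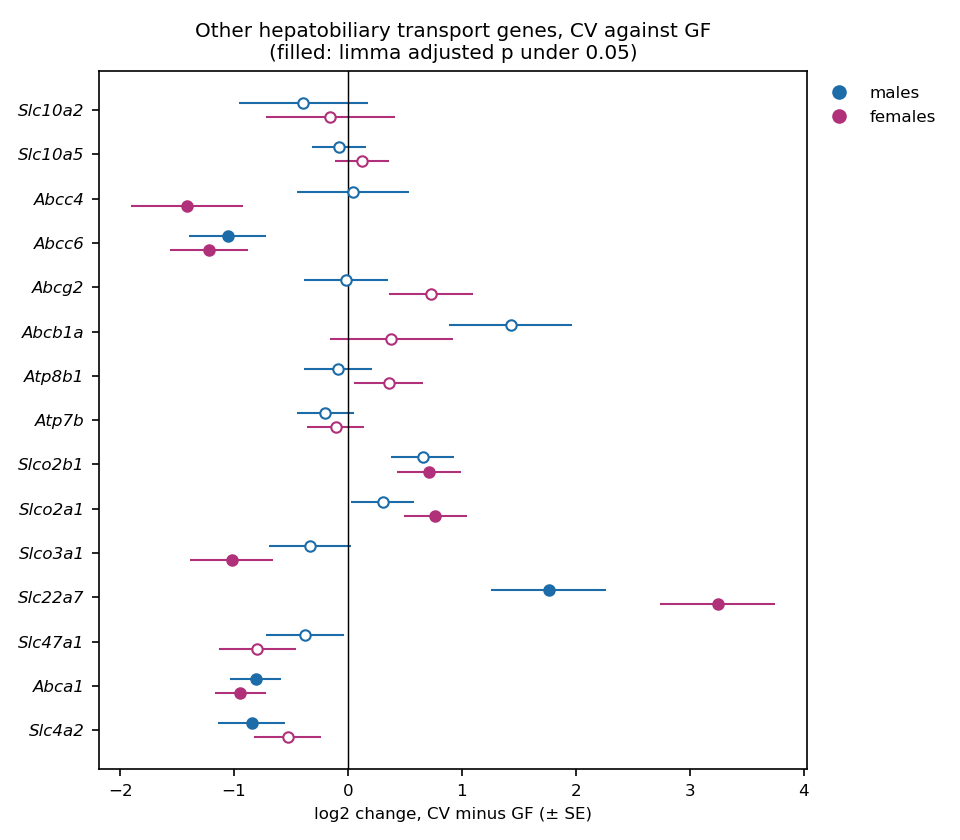
Change of 15 tested genes of the list of other hepatobiliary transport genes, CV minus GF on the log2(normalized count + 1) scale, in males and females; bars are the SE of the limma fit and filled points have an adjusted p under 0.05. Slc22a7 lies farthest to the right in both sexes, and Abca1 and Abcc6 are filled on the left in both.

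Of 12 genes for canalicular targeting and junctions, all tested, 4 passed in males (3 higher, 1 lower) and 5 in females (4 higher, 1 lower), beside the same 29.5% and 55.8% of all genes. The scaffolds that hold carriers at the membrane, Pdzk1 and Slc9a3r1, rose by 1.80 ± 0.38 and 1.22 ± 0.32 in males (limma adjusted p = 0.0035 and 0.011) and by 2.76 ± 0.38 and 1.99 ± 0.32 in females (limma adjusted p = 2.9e-05 and 9.6e-05). Rab11a, a GTPase of recycling endosomes, rose by 0.90 ± 0.32 in males and 1.60 ± 0.32 in females (limma adjusted p = 0.042 and 0.00052). Vipas39, whose product acts with Vps33b in apical delivery, fell by 0.89 ± 0.24 and 0.83 ± 0.24 (limma adjusted p = 0.013 and 0.0081). Radixin (Rdx), which anchors Abcc2 at the canaliculus, changed by 0.25 ± 0.24 and -0.11 ± 0.24 (limma adjusted p = 0.45 and 0.71).

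Among 15 regulators of transporter genes, all tested, 4 passed in males (1 higher, 3 lower) and 6 in females (3 higher, 3 lower), again beside 29.5% and 55.8% of all genes. Nr5a2 (LRH-1), an activator of bile acid genes, fell by 0.95 ± 0.30 in males and 1.08 ± 0.30 in females (limma adjusted p = 0.027 and 0.0062). The xenobiotic receptor Ahr fell by 0.80 ± 0.24 and 1.00 ± 0.24 (limma adjusted p = 0.022 and 0.0023). Nfe2l2 (NRF2), a known activator of Abcc2 and Abcc3, fell by 1.09 ± 0.25 in females (limma adjusted p = 0.0015) and changed by -0.49 ± 0.25 in males (limma adjusted p = 0.14). In females Nr1h3 (LXR alpha), an oxysterol receptor that drives Abcg5 and Abcg8, rose by 0.73 ± 0.23, its partner Rxra by 0.76 ± 0.25 and Hnf4a by 0.68 ± 0.24 (limma adjusted p = 0.015, 0.015 and 0.026). These rises and falls of regulators, too, are those under the deposited scaling, and their values under the other scalings are not given here. Over the 3 lists together, 13 of 43 tested genes passed in males and 19 in females, where 29.5% and 55.8% of all genes passed, and their median changes were -0.02 and -0.01.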

How the data were processed

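The authors deposited 1 table of normalized expression signal per gene for the 12 libraries of a stranded poly(A) kit. The submitters' processing notes name HTSeq 0.6.1p1, DESeq2 and GRCm38; the aligner and annotation are not given in the sources used here. Every value was a whole multiple of 1 read within 0.01 reads, so whole reads were recovered by undoing 1 size factor per library; these equalled DESeq2 factors over 12512 genes. All columns were mapped from their titles. GENCODE mouse release 21 (GRCm38) gave coordinates and lengths for 40254 of 41128 identifiers (97.9%), and RefSeq (GRCm38.p6) the promoter windows.

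Genes with a mean normalized count of at least 10 (11782) were tested with limma 3.58.1 (R 4.3.3) on log2(value + 1), which understates changes of low genes, in 1 fit with 1 mean per group of condition and labelled sex, a variance trend and Benjamini-Hochberg adjustment at 0.05. All 10 genes are named; 1 gene of the lists of related genes is counted but not reported here. The members, the lists of related genes and markers and the tests were chosen with earlier results of these data known. Alternatives were edgeR 4.0.16 with TMM factors and DESeq2 1.42.0 on recovered reads, other pseudocounts, filters and scalings, a length and GC trend removed per library, mitochondrial rRNA share as covariate, 6-library fits, a replicate block, and each library left out. Scripts were tested on simulated data. Figures used matplotlib 3.10.9.

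Replicate numbers were checked for pairing by correlating deviations from group means. Same-numbered GF and CV libraries gave -0.23 to 0.02. Same-numbered GF males and females gave 0.06, 0.40 and 0.07, not above 0.1 in each pair, so they did not count as paired by the rule used. These values cannot show that pairing was absent, and with the replicate block 830 genes passed between GF sexes, against 192 without it. Same-numbered CV males and females gave 0.12 to 0.19, above 0.1 in each of 3 pairs, so that comparison counts as paired by the rule used, a hint from the values and not from the labels; with the block it called 0 of the 10 genes, as without it. The paper given with the series describes another experiment and supplied no method.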

Additional observations from a re-analysis of the deposited data

How the results depend on the processing

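The change of Slc10a1 kept its direction under each of 13 alternatives and each of 12 fits without 1 library in both sexes, and its call under all but the mitochondrial rRNA covariate. Genes passing in males among the 10 numbered 1, and 3 with DESeq2, 2 scaled to all reads, 2 scaled to reads outside the abundant loci, 2 with TMM-scaled CPM, 0 with the mitochondrial rRNA covariate and 3 with the length and GC trend removed. Over all genes the male counts in the same order were 3474, 4157 (of 15376 tested), 3611, 3119, 3401, 3 and 2959. In females 5 of the 10 passed, against 3 when any value above 0 was tested, 0 with the covariate and 5 scaled to all reads. Of those last 5, Slc10a1 and Abcb4 were among the first 5, and Abcc2, Abcg5 and Slco1a4 no longer passed. Over all genes the female counts in the same order were 6572, 6970 (of 22953 tested), 0 and 6951. Averaged over the sexes 6 of the 10 passed, against 0 with the covariate. With edgeR, Abcb4 and Abcc3 lost that call, with any value above 0 Abcb11 and Abcc3, and with TMM-scaled CPM Abcc3. DESeq2 added Abcg8. Scaled to all reads, Abcb11, Abcc2 and Abcg5 lost it, and Slco1b2 and Abcg8 gained one. Outside the abundant loci Abcb4 and Abcc3 lost it, and Slco1a1 and Slco1b2 passed downward. With the length and GC trend removed Abcb11 and Abcc2 lost it, and Abcg8 gained one. Between GF males and females 1 passed, against 2 with DESeq2, 3 scaled to all reads, 2 with 6 libraries, 0 with the covariate and 2 with the replicate block, which added Slco1a1. Leaving out 1 library gave 1 to 3 in males, 3 to 5 in females, 4 to 6 averaged and 0 to 2 between GF sexes. Related genes passing in males numbered 13, and 8 with any value above 0, 6 with 6 libraries, 0 with the covariate, 8 with the replicate block and 3 to 13 without 1 library; in females 19, and 0 with the covariate. Fits of 6 libraries hold fewer samples by construction; for the other settings the cause was not tested.

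Directions reversed for these genes. Slco1b2 in males went from 0.01 to -0.0082 with edgeR, -0.29 outside the abundant loci, -0.043 with TMM-scaled CPM and -0.35 with the covariate, in females from -0.04 to 0.77 scaled to all reads and 0.26 with the trend removed, and averaged from -0.01 to 0.55 and 0.21; without 1 library it ranged from -0.17 to 0.11, -0.25 to 0.10 and -0.12 to 0.057. Slco1a1 in females went from 0.10 to -0.52 outside the abundant loci and -2.25 with the covariate, and averaged from -0.23 to 0.33 scaled to all reads and 0.088 with the trend removed; without 1 library it ranged from -1.02 to 0.082 in males, -0.17 to 0.35 in females and -0.46 to 0.093 averaged. Slco1a4 averaged went from -0.41 to 0.15 scaled to all reads and 0.22 with the covariate, and in males ranged from -0.16 to 0.69 without 1 library. Abcb11 went to 0.18 in females and 0.014 averaged scaled to all reads. Abcc3 went to -0.23 in males, -1.21 in females and -0.72 averaged with the covariate. Abcg8 went to -0.22 in females and -0.056 averaged outside the abundant loci, and to -0.56 and -0.28 with the covariate. The replicate block lost the female call of Abcb4 (limma adjusted p = 0.079) and lowered the related calls in males as above.

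Genes passing over the whole table between GF males and females numbered 192, against 458 with DESeq2, 1393 scaled to all reads, 4 with the covariate, 830 with the replicate block and 49 (without GF male 2) to 716 (without GF female 2) when 1 library was left out. Between CV sexes 7 passed, 0 to 48 under the other alternatives, and 3 to 77 when 1 library was left out, with 77 without the library labelled CV male 3 and 48 without CV male 1. The sex difference of the change, with 0 genes passing, had 0 to 291 when 1 library was left out and 1 with the covariate. The log2 ratio of Abcg5 to Abcg8 ranged from -1.34 to -0.52 in males and -2.04 to -0.34 in females over the alternatives. In males 3474 passed over the whole table, against 1604, 2135 and 2183 when GF male 1, GF male 3 or CV male 1 was left out. With 3 libraries a group and the library labelled CV male 3 in doubt, male changes as large as 0.66 in size (Abcc2) did not pass, and composition that differed between conditions bears on each comparison of GF with CV.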
